A study of Caenorhabditis elegans with 9 samples.

Results

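The genes described here are those of sperm formation, sperm activation and fertilization in Caenorhabditis elegans. They were chosen by name, as probe sets that name 1 gene whose symbol starts with spe- or nspd-, or is fer-1, gsp-3, gsp-4, snf-10, try-5, swm-1 or comp-1, with 1 probe set per gene. This gave 42 genes among the 17118 genes that the annotated probe sets name singly. By the reference's symbols, 53 genes meet the rule. Of those without a probe set of their own, nspd-3, nspd-5, nspd-6 and nspd-11, 4 in all, are named only on probe sets of several genes, and another 7 were not analysed here. No member was removed by a filter on low levels, and 15 of the 42 had a mean level below the 30th percentile of all probe sets.

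Levels came from 9 Affymetrix arrays of total RNA from pelleted whole animals labelled as young adults, 3 arrays per group. The wild-type group was strain N2. The second group was strain MT14769, prg-1(n4357);prg-2(n4358), and the third was strain SX9, prg-1(n4503);prg-2(nDf57), so every mutant animal carried alleles of both genes. prg-1 encodes the Piwi-class Argonaute that binds piRNAs, small RNAs of the germline, and prg-2 is its close relative. Whether replicates were separate cultures is not stated in the labels. The p-values therefore measure only how far these samples spread, which may be technical.

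A C. elegans hermaphrodite makes sperm for a short time as a late larva and then turns its germline to oocytes, so an adult holds a store of finished sperm. Spermatocytes switch on a large set of sperm genes, pack the major sperm protein into organelles called fibrous bodies joined to membranous organelles, and divide into round spermatids that make no further RNA. An activation signal then turns spermatids into crawling spermatozoa, and proteins on their surface let them recognise and fuse with the oocyte. The spe genes were found as mutants whose sperm fail at one of these steps, and animals lacking prg-1 are known for lowered fertility.

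Arrays of 1 group differed from each other in several ways that touch these genes. The mean of 29 moulting genes, a mark of late larval stage, ran from -0.47 to 0.41 log2 relative to the 9 arrays. It was lowest in replicate 3 of n4357 n4358 (-0.47), replicate 1 of n4503 nDf57 (-0.45) and replicate 2 of wild type (-0.21), and a second fit left out these 3 arrays. The 29 genes went different ways, as 3 picked as examples show. On wild-type replicates 1 and 2 noah-1 stood at 11.34 and 9.44 log2, nas-7 at 4.68 and 7.65, and sqt-3 at 13.05 and 13.08. On the 3 arrays left out, noah-1 had its lowest levels (8.86 to 9.44) and nas-7 its highest (7.14 to 7.65). A mean over genes that move in opposite ways therefore does not fix the stage of an array. The mean level of 27 bacterial control probe sets, which match no worm gene, was 3.68 log2 in n4357 n4358 replicate 3 and between 3.23 and 3.38 on the other arrays. Array medians lay between 4.76 and 4.83 log2, and no pair of arrays held identical values. The prg-1 probe set stood at 6.93, 6.13 and 5.40 log2 on the wild-type arrays, 6.74, 7.94 and 5.47 on those of n4357 n4358 and 7.50, 6.72 and 7.07 on those of n4503 nDf57, and the position of its probes relative to the mutations is not known here, so it checks no label. The prg-2 probe set, open to the same limit, stood between 6.005 and 6.53 log2 in wild type, between 5.46 and 6.10 in n4357 n4358 and between 5.87 and 6.27 in n4503 nDf57, with overlapping groups.

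Most of the 42 genes lay close to wild type in the mean of both mutants, and a small group lay well below it. The difference was under 0.3 log2 in size for 33 of the 42 genes and over 1 log2 for 4, all of the nspd peptide family. The lowest difference was -1.86 (nspd-4) and the highest 0.35 (spe-40). In all, 26 genes were below 0 and 16 above, with a median of -0.08, where 43.5% of all probe sets were below 0 and their median was 0.02. Because the animals were extracted whole, fewer sperm-forming cells and less RNA per cell cannot be told apart.

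Of the 42 genes 0 passed an adjusted p of 0.05 (limma, Benjamini-Hochberg over all 22548 probe sets), in a comparison that called 0.0% of all probe sets. At an unadjusted p under 0.05 there were 6 genes lower and 0 higher, where 1.73% of all probe sets were lower and 1.88% higher (3.61% either way). These 6 were nspd-1, nspd-2, nspd-4, nspd-7, spe-46 and spe-10. The count of 6 was 0 without wild-type replicate 2, 1 (spe-10) without wild-type replicate 3, 4 without n4503 nDf57 replicate 2 or 3, and lay between 5 and 7 without any other array. On the 6 arrays without those lowest in moulting genes it was 6, of which nspd-1, nspd-2, nspd-4 and spe-10 were in the full count and spe-12 and spe-26 were not. The 6 arrays kept include n4357 n4358 replicate 2 and n4503 nDf57 replicates 2 and 3, the lowest arrays for nspd-1, nspd-2 and nspd-4. The share of all probe sets at that p in these refits is not given here, so these counts have no background beside them. The same comparison for each strain, which shares the wild-type arrays with the other, also called 0 genes and 0.0% of probe sets. Against wild type, n4357 n4358 had 2 genes lower at an unadjusted p under 0.05 and 0 higher, with a background of 2.03% and 1.96% (3.99% either way). For n4503 nDf57 there were 4 lower and 0 higher, with a background of 1.11% and 1.72% (2.83% either way). The median difference was -0.06 in n4357 n4358, with 24 genes below 0, and -0.10 in n4503 nDf57, with 30 below 0. That of n4357 n4358 turned to 0.059 without its replicate 2, to 0.023 without wild-type replicate 2 and to 0.050 without shared probe sets. Of all probe sets 45.9% and 45.1% were below 0 in these comparisons.

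**Figure D1:**
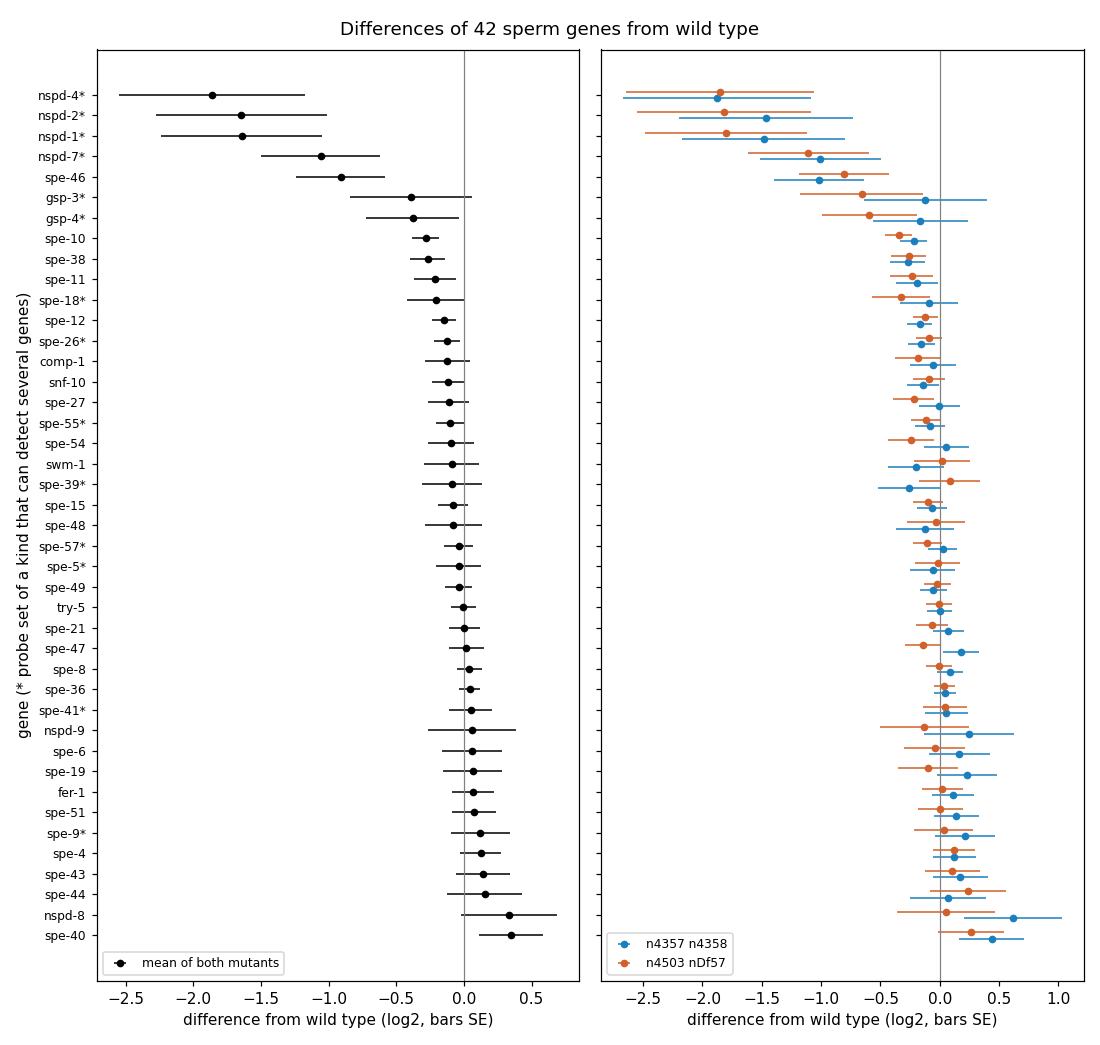
Difference of each of the 42 genes from wild type in log2, with bars for the SE, for the mean of both mutants (left) and each strain (right). The 4 nspd genes on shared probe sets and spe-46 lie lowest, from -1.86 to -0.91 in the mean, and the rest lie between -0.39 and 0.35.

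The nspd genes encode a family of small nematode-specific peptides and held the widest differences among the 42 genes. nspd-4 stood at 7.57, 9.24 and 8.77 log2 on the wild-type arrays, 7.23, 4.67 and 8.04 on those of n4357 n4358 and 6.95, 6.66 and 6.41 on those of n4503 nDf57. All n4503 nDf57 arrays lay below the lowest wild-type array, while n4357 n4358 replicate 3 lay inside the wild-type range. Group means of nspd-4 were 8.53 ± 0.86, 6.65 ± 1.76 and 6.67 ± 0.27 log2 (SD, n = 3 each). The difference between the mean of both mutants and wild type was -1.86 log2, 3.64-fold lower in the mutants (SE 0.69; limma unadjusted p = 0.0254, adjusted p = 0.999).

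nspd-1 stood at 6.91, 8.76 and 8.25 log2 on the wild-type arrays, 6.69, 5.08 and 7.68 on those of n4357 n4358 and 6.70, 6.14 and 5.66 on those of n4503 nDf57. Its mean difference was -1.64 (SE 0.59; limma unadjusted p = 0.0232, adjusted p = 0.999). The order of the arrays was close to that of nspd-4, with wild-type replicate 1 the lowest of its group and near replicate 1 of each mutant. nspd-2 stood at 7.08, 8.51 and 8.36 on the wild-type arrays, 6.86, 4.84 and 7.85 on those of n4357 n4358 and 6.77, 6.16 and 5.55 on those of n4503 nDf57, a difference of -1.64 (SE 0.63; limma unadjusted p = 0.0310, adjusted p = 0.999). nspd-7 stood at 6.26, 7.64 and 7.46 on the wild-type arrays, 6.29, 5.05 and 7.01 on those of n4357 n4358 and 6.26, 5.93 and 5.86 on those of n4503 nDf57, a difference of -1.06 (SE 0.44; limma unadjusted p = 0.0415, adjusted p = 0.999). In each of these genes n4503 nDf57 lay wholly below wild type and n4357 n4358 overlapped it. n4503 nDf57 lay wholly below wild type in 7 of the 42 genes, these and spe-10, spe-12 and spe-38, against 2.56% of all probe sets. For nspd-7 the margin was small, with the highest n4503 nDf57 array at 6.256 and the lowest wild-type array at 6.264.

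These 4 genes were read by shared probe sets, whose names mark probes that may match related genes too, so their values are uncertain and are not independent of each other. Another 4 probe sets name several nspd genes at once (nspd-3 with nspd-6, the same with nspd-11, or nspd-4 with nspd-5), and their mean differences ran from -1.97 to -1.39. The size of the nspd differences leaned on single arrays. Without n4357 n4358 replicate 2 the difference of that strain shrank from -1.88 to -0.89 for nspd-4, from -1.48 to -0.78 for nspd-1, from -1.47 to -0.63 for nspd-2 and from -1.01 to -0.47 for nspd-7. With single arrays left out, the mean difference of both mutants lay between -2.34 and -1.37 for nspd-4, the latter with n4357 n4358 replicate 2 left out, and between -2.17 and -1.25 for nspd-1, the latter with wild-type replicate 2 left out. For nspd-2 it ran from -2.10 to -1.22 and for nspd-7 from -1.49 to -0.79, the smaller size in both with n4357 n4358 replicate 2 left out. On the 6-array fit the differences were -1.92 for nspd-4, -1.68 for nspd-1, -1.87 for nspd-2 and -1.08 for nspd-7. That fit kept the mutant arrays lowest in these genes, n4357 n4358 replicate 2 and n4503 nDf57 replicates 2 and 3. It left out wild-type replicate 2, the highest wild-type array in each. Its differences therefore do not show what a stage correction would leave.

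**Figure D2:**
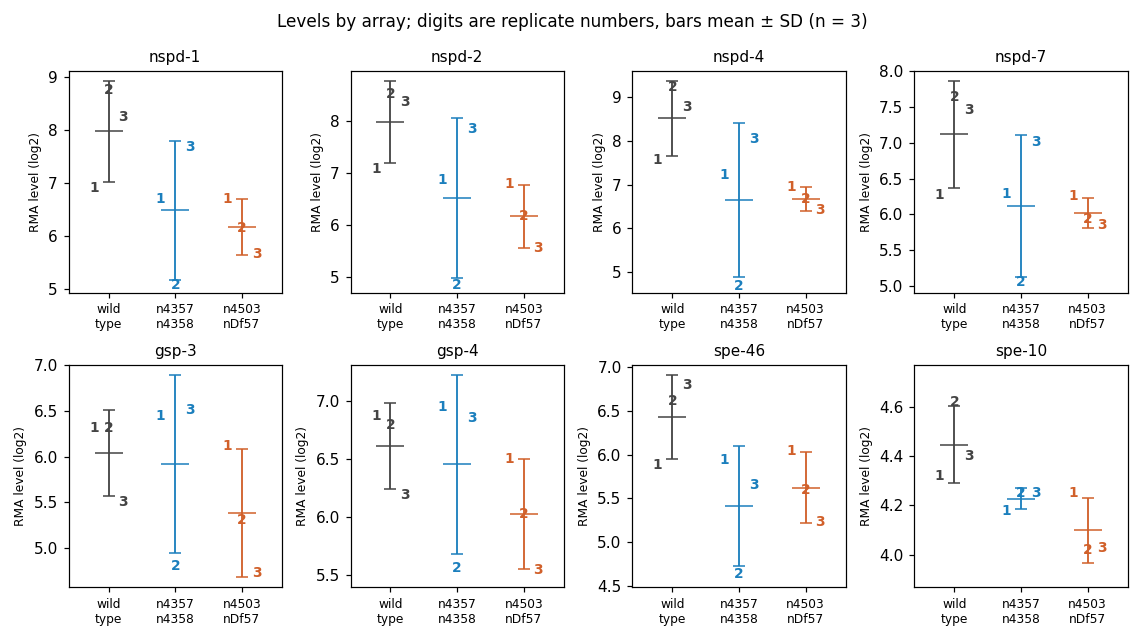
RMA level in log2 of 8 genes on each of the 9 arrays, with digits for the replicate number and bars for the mean and SD of 3 arrays. For the 4 nspd genes replicate 2 of n4357 n4358 is the lowest array, and for spe-10 all 6 mutant arrays lie below the 3 wild-type arrays.

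The remaining nspd members, nspd-8 and nspd-9, have probe sets not of the shared kind and did not follow that order. Their mean levels, 3.18 and 3.33 log2, lay near those of the bacterial controls (3.23 to 3.68). Whether these genes differ from the other nspd genes can therefore not be read from them. nspd-8 stood at 2.89, 3.19 and 2.80 log2 on the wild-type arrays, 3.02, 3.01 and 4.70 on those of n4357 n4358 and 3.20, 2.95 and 2.89 on those of n4503 nDf57. nspd-9 stood at 3.05, 3.32 and 3.50 on the wild-type arrays, 3.08, 2.96 and 4.57 on those of n4357 n4358 and 3.16, 3.22 and 3.10 on those of n4503 nDf57. In both genes 1 array, n4357 n4358 replicate 3, stood above the other 8, and the groups otherwise overlapped. Without that array the n4357 n4358 difference changed from 0.62 to 0.05 for nspd-8 and from 0.25 to -0.27 for nspd-9.

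Among 5 genes of spermatocyte transcription, meiosis and signalling, 3 were below 0 and 2 above in the mean of both mutants, with a median of -0.22. gsp-3 and gsp-4 encode closely related protein phosphatases of the PP1 type that sperm need for chromosome segregation and motility. gsp-3 stood at 6.31, 6.31 and 5.500 log2 on the wild-type arrays, 6.45, 4.799 and 6.51 on those of n4357 n4358 and 6.11, 5.31 and 4.72 on those of n4503 nDf57. gsp-4 stood at 6.87, 6.79 and 6.19 on the wild-type arrays, 6.95, 5.56 and 6.85 on those of n4357 n4358 and 6.50, 6.02 and 5.54 on those of n4503 nDf57. In both, n4357 n4358 replicate 2 and n4503 nDf57 replicates 2 and 3 were the lowest arrays, and the other mutant arrays lay above the lowest wild-type array. The mean differences were -0.39 for gsp-3 (SE 0.45) and -0.38 for gsp-4 (SE 0.35), smaller than the spread within the n4357 n4358 group, whose SD was 0.97 and 0.77. Without n4357 n4358 replicate 2 they were -0.11 and -0.16, and without wild-type replicate 3 they were -0.66 and -0.59. Both probe sets are shared ones, so the pair may share signal.

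spe-44, a transcription factor that switches on many sperm genes, stood at 4.85, 4.50 and 3.99 log2 on the wild-type arrays, 5.16, 4.20 and 4.18 on those of n4357 n4358 and 4.93, 4.82 and 4.30 on those of n4503 nDf57. The groups overlapped fully, with a mean difference of 0.15 (SE 0.28), which turned to -0.08 without wild-type replicate 3. spe-11, a protein that sperm bring into the egg and the embryo needs, stood at 3.45, 3.99 and 3.51 on the wild-type arrays, 3.49, 3.17 and 3.71 on those of n4357 n4358 and 3.45, 3.36 and 3.43 on those of n4503 nDf57. Its mean difference was -0.22 (SE 0.15) and shrank to -0.04 without wild-type replicate 2, its highest array. spe-6, a casein kinase-like protein that holds back activation, had a mean difference of 0.06 (SE 0.22).

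Of the 8 genes of the fibrous bodies, membranous organelles and sperm shape, 6 were below 0 and 2 above, with a median of -0.08. The lowest was spe-10, a palmitoyltransferase of these organelles, at 4.32, 4.62 and 4.40 log2 on the wild-type arrays, 4.18, 4.25 and 4.25 on those of n4357 n4358 and 4.25, 4.02 and 4.03 on those of n4503 nDf57. All 6 mutant arrays lay below the 3 wild-type arrays, which was so for 1 of the 42 genes and for 0.803% of all probe sets. The difference was -0.28, 1.22-fold (SE 0.10; limma unadjusted p = 0.0190, adjusted p = 0.999), and ran from -0.35 to -0.20 with single arrays left out (with wild-type replicates 1 and 2 left out). No gene had all mutant arrays above wild type, where 1.05% of probe sets did. The separation of spe-10 was narrow. Its highest mutant value, 4.2503, was the same on n4357 n4358 replicates 2 and 3 and n4503 nDf57 replicate 1, and its lowest wild-type value was 4.3194.

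In the other organelle genes wild-type and mutant arrays overlapped, although spe-26 lay below wild type on all n4357 n4358 arrays, as in 4.7% of probe sets. spe-4, a presenilin of the membranous organelles, stood at 6.48, 6.27 and 6.11 log2 on the wild-type arrays, 6.71, 6.08 and 6.43 on those of n4357 n4358 and 6.60, 6.28 and 6.34 on those of n4503 nDf57, a difference of 0.12 (SE 0.15). fer-1, the ferlin that fuses these organelles with the cell surface, stood at 4.23, 4.12 and 3.97 on the wild-type arrays, 4.08, 4.25 and 4.32 on those of n4357 n4358 and 4.51, 4.08 and 3.81 on those of n4503 nDf57, a difference of 0.07 (SE 0.15). That of fer-1 turned to -0.03 without n4503 nDf57 replicate 1. spe-18, needed to build fibrous bodies, differed by -0.21 (SE 0.21), and by -0.048 without wild-type replicate 1. spe-26, a kelch protein, differed by -0.12 (SE 0.10), and spe-15, a myosin of class VI, by -0.08 (SE 0.11). spe-39, a vesicle traffic protein also used outside sperm, differed by -0.09 (SE 0.22), which turned to 0.076 without n4357 n4358 replicate 3, and spe-5, a subunit of the proton pump of vesicles, by -0.04 (SE 0.17).

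The spe-8 group passes the activation signal in hermaphrodite sperm. Of 7 genes of hermaphrodite activation, 3 were below 0 and 4 above in the mean of both mutants, with a median of 0.02. spe-46, a membrane protein linked to activation, lay apart from the rest at 5.88, 6.61 and 6.79 log2 on the wild-type arrays, 5.94, 4.64 and 5.65 on those of n4357 n4358 and 6.04, 5.60 and 5.23 on those of n4503 nDf57. Wild-type replicate 1 lay among the mutant arrays and the other wild-type arrays lay above all of them. Its group means were 6.43 ± 0.48, 5.41 ± 0.68 and 5.62 ± 0.41 (SD, n = 3 each). The mean difference was -0.91, 1.88-fold (SE 0.33; limma unadjusted p = 0.0230, adjusted p = 0.999). It ran from -1.18 to -0.72 with single arrays left out (with wild-type replicate 1 and with n4357 n4358 replicate 2 left out). The spe-46 probe set is not of the shared kind.

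The remaining activation genes differed little. spe-43, a member of the spe-8 group, stood at 6.47, 6.54 and 6.30 log2 on the wild-type arrays, 6.27, 6.45 and 7.10 on those of n4357 n4358 and 6.90, 6.37 and 6.35 on those of n4503 nDf57, a difference of 0.14 (SE 0.20). spe-8, the tyrosine kinase of the group, differed by 0.04 (SE 0.10), spe-12, a membrane protein, by -0.15 (SE 0.09), spe-19, another membrane protein, by 0.06 (SE 0.22) and spe-27 by -0.11 (SE 0.15). In spe-8 the n4357 n4358 arrays all lay above wild type, as in 4.36% of probe sets, and in spe-12 the n4503 nDf57 arrays all lay below it. spe-47, whose protein carries a major sperm protein domain, stood at 3.91, 3.76 and 3.76 on the wild-type arrays, 3.87, 3.81 and 4.29 on those of n4357 n4358 and 3.81, 3.70 and 3.50 on those of n4503 nDf57. Its mean difference was 0.02 (SE 0.13).

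Of 6 genes of gamete recognition and fertilization, 2 were below 0 and 4 above, with a median of 0.04. spe-9, a sperm surface protein with EGF repeats, stood at 5.01, 5.27 and 4.92 log2 on the wild-type arrays, 4.86, 5.20 and 5.77 on those of n4357 n4358 and 5.47, 4.96 and 4.85 on those of n4503 nDf57, a difference of 0.12 (SE 0.22). spe-41, a calcium channel of the TRPC type, stood at 5.82, 5.97 and 5.70 on the wild-type arrays, 5.67, 5.76 and 6.23 on those of n4357 n4358 and 6.16, 5.69 and 5.76 on those of n4503 nDf57, a difference of 0.05 (SE 0.16). The groups overlapped in both genes. Without n4357 n4358 replicate 3 the mean differences of spe-9 and spe-41 were -0.0019 and -0.04. The lowest difference was that of spe-38, a sperm membrane protein needed for fertilization, at -0.27 (SE 0.13), with all n4503 nDf57 arrays below wild type, the highest of them at 3.06 as was the lowest wild-type array. Without wild-type replicate 2 the spe-38 difference was -0.10. spe-36, a secreted protein with an EGF motif, differed by 0.04 (SE 0.08), spe-49 by -0.04 (SE 0.10) and spe-51, a secreted protein, by 0.07 (SE 0.16).

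In the mean of both mutants, the 3 genes of male activation and comp-1 differed by less than their pooled SD within groups. Mean levels of try-5 and snf-10, 3.51 and 3.33 log2, lay within the 3.23 to 3.68 of the bacterial controls, so little can be read from these genes. swm-1, a protease inhibitor that keeps sperm of males inactive before mating, stood at 10.62, 10.66 and 10.58 log2 on the wild-type arrays, 10.24, 10.89 and 10.13 on those of n4357 n4358 and 10.24, 10.67 and 10.999 on those of n4503 nDf57. The difference of swm-1 was -0.09 (SE 0.20), with a wider spread in the mutants (SD 0.41 and 0.38) than in wild type (SD 0.04). try-5, the seminal fluid protease that activates sperm, stood at 3.39, 3.70 and 3.45 on the wild-type arrays, 3.59, 3.40 and 3.56 on those of n4357 n4358 and 3.52, 3.49 and 3.52 on those of n4503 nDf57, with a difference of -0.0041 (SE 0.09). snf-10, a membrane transporter that sperm need to answer that protease, stood at 3.40, 3.65 and 3.16 on the wild-type arrays, 3.25, 3.24 and 3.31 on those of n4357 n4358 and 3.45, 3.29 and 3.19 on those of n4503 nDf57, a difference of -0.12 (SE 0.12). comp-1, which sperm need to compete and to find their way, stood at 5.39, 5.76 and 5.58 on the wild-type arrays, 5.54, 5.499 and 5.51 on those of n4357 n4358 and 5.81, 5.36 and 4.996 on those of n4503 nDf57, a difference of -0.12 (SE 0.17). Without n4503 nDf57 replicate 3 that of comp-1 was -0.02. The male-specific genes, 10 in number, had a mean relative to the 9 arrays of -0.12 to 0.25 log2.

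Of 6 genes given no role here, 4 were below 0, with a median of -0.059, and spe-40 had the highest difference of all 42, at 4.71, 4.60 and 4.41 log2 on the wild-type arrays, 4.71, 4.62 and 5.71 on those of n4357 n4358 and 5.09, 4.71 and 4.71 on those of n4503 nDf57. The mean difference of spe-40 was 0.35 (SE 0.24) and 0.17 without n4357 n4358 replicate 3. spe-54 stood at 3.65, 3.87 and 3.91 on the wild-type arrays, 3.61, 3.71 and 4.28 on those of n4357 n4358 and 3.69, 3.70 and 3.31 on those of n4503 nDf57, a difference of -0.09 (SE 0.17). The others, spe-21, spe-48, spe-55 and spe-57, had differences from -0.10 (spe-55) to 0.0021 (spe-21). spe-55 has a second, less bright probe set, whose difference was 0.06.

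The strains were also set against each other. Of the 42 genes 0 passed limma's adjusted p of 0.05 between n4503 nDf57 and n4357 n4358, with 0.0% of probe sets called, and 0 had an unadjusted p under 0.05 in either direction. The background at that p was 1.71% higher and 0.758% lower (2.47% either way). The smallest unadjusted p was that of spe-47, at -0.32 (SE 0.15; limma unadjusted p = 0.0600, adjusted p = 0.977). In all 30 genes were lower in n4503 nDf57 than in n4357 n4358, with a median of -0.09, where 50.0% of probe sets were lower. Without n4357 n4358 replicate 3 this median was 0.0064. In 0 of the 42 genes did all arrays of one strain lie below, or above, all of the other, against 2.12% of probe sets with n4503 nDf57 lower and 3.37% with it higher.

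**Figure D3:**
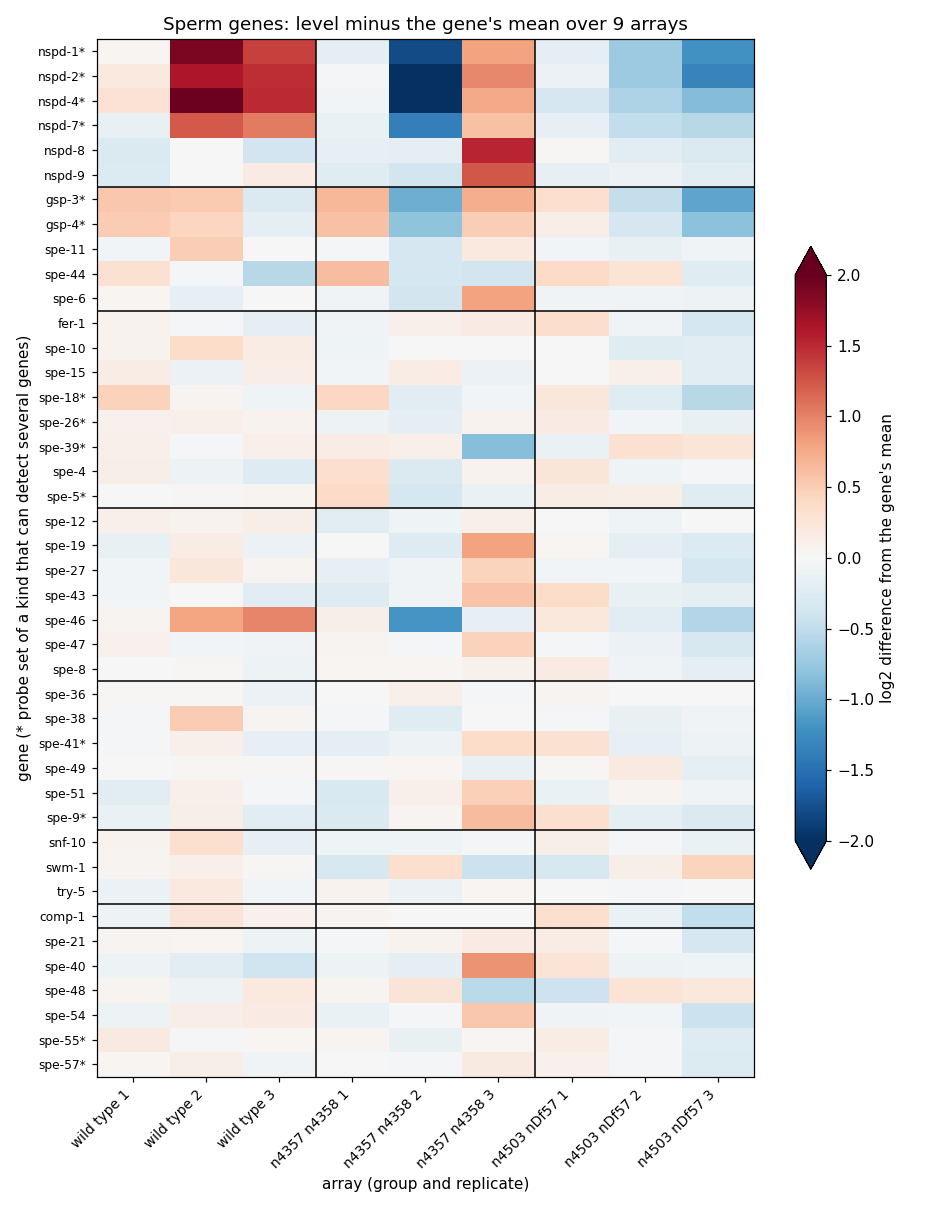
Level of each of the 42 genes minus its own mean over the 9 arrays, in log2, with genes in rows by role and arrays in columns by group. Replicate 2 of n4357 n4358 is low for nspd-1, nspd-2, nspd-4, nspd-7, gsp-3, gsp-4 and spe-46, and replicate 3 of the same group is high for nspd-8, nspd-9, spe-6, spe-19 and spe-40.

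The order of the arrays recurred across genes of different roles. In 12 of the 42 genes n4357 n4358 replicate 2 and n4503 nDf57 replicates 2 and 3 were the 3 lowest arrays, as in 2.62% of all probe sets. Of the 12, gsp-3, gsp-4, nspd-1, nspd-2, nspd-4, nspd-7, spe-18 and spe-55, 8 in all, had shared probe sets, and spe-11, spe-19, spe-38 and spe-46, 4 in all, had not. The pattern was noticed in these values and is a description. All 23 major sperm protein genes, whose probe sets are of the shared kind, and 11 of 18 other sperm genes such as smz-1, msd-2 and ssp-16 had the same 3 arrays lowest. The mean of the 4 nspd genes on shared probe sets was 0.09, 1.67 and 1.35 log2 on the wild-type arrays, -0.10, -1.95 and 0.78 on those of n4357 n4358 and -0.20, -0.64 and -0.99 on those of n4503 nDf57. That of the major sperm proteins was 0.81, 1.42 and 0.33, then 0.49, -2.15 and 1.05, then 0.37, -0.89 and -1.44. Both lists had the 3 arrays in common as their lowest, but wild-type replicate 1 stood below replicate 3 for nspd and above it for the major sperm proteins.

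The genes on shared probe sets include nspd-1, nspd-2, nspd-4, nspd-7, gsp-3 and gsp-4, which differed by -1.86 to -0.38 in the mean of both mutants. The others on shared probe sets ran from -0.21 (spe-18) to 0.12 (spe-9), and spe-46, on an unshared one, lay at -0.91. The kind of probe set and the genes it reads can therefore not be told apart here. The 14 genes on shared probe sets had 12 differences below 0 and a median of -0.17 in the mean of both mutants. The 28 on other probe sets had 14 below 0 and a median of -0.0010. By strain, 13 of these 28 were below 0 in n4357 n4358 (median 0.050) and 19 in n4503 nDf57 (median -0.056). Of all probe sets, shared or not, 45.9% and 45.1% were below 0 in these comparisons. The median of the pooled SD within groups was 0.35 log2 for the 14 genes, 0.23 for the 28 and 0.20 for all probe sets. The mean of the 28 genes relative to the 9 arrays stayed between -0.17 and 0.24 log2.

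**Figure D4:**
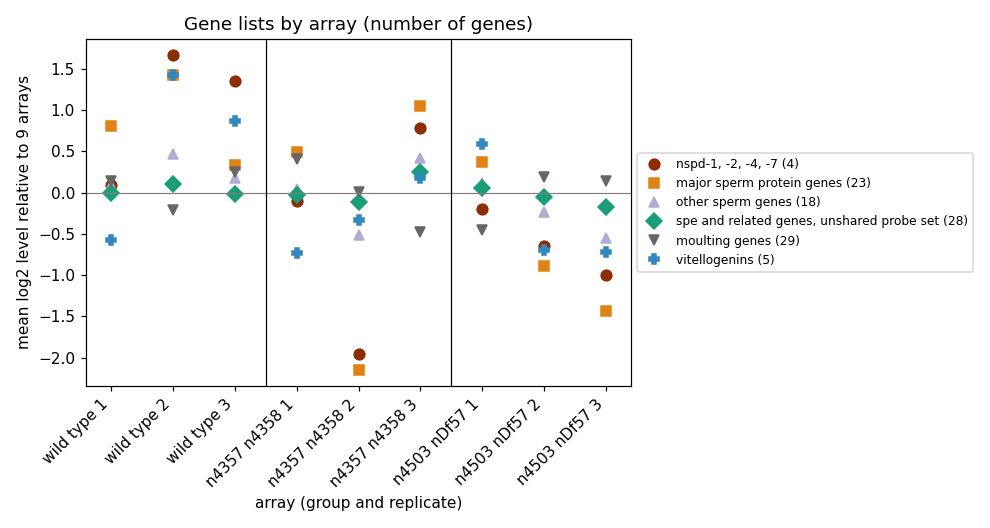
Mean log2 level of 6 gene lists on each array relative to the 9 arrays, with arrays by group. The nspd genes on shared probe sets and the major sperm proteins are lowest in n4357 n4358 replicate 2, at -1.95 and -2.15, while the 28 genes on unshared probe sets stay between -0.17 and 0.24.

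Replicate 3 of n4357 n4358 was the highest of its group in 12 of the 15 genes below the 30th percentile of level, as in 61.0% of all probe sets below it. It was the highest of its group in all 27 bacterial controls. spe-6 stood at 3.48, 3.28 and 3.43 log2 on the wild-type arrays, 3.37, 3.07 and 4.24 on those of n4357 n4358 and 3.37, 3.36 and 3.33 on those of n4503 nDf57, so that 1 array lay above the other 8. spe-19 stood at 3.77, 4.07 and 3.81 on the wild-type arrays, 3.92, 3.67 and 4.73 on those of n4357 n4358 and 3.96, 3.73 and 3.65 on those of n4503 nDf57, with the same array highest. Without it the n4357 n4358 difference from wild type changed from 0.17 to -0.18 for spe-6 and from 0.23 to -0.08 for spe-19. The part of the raised control level in these values was not tested. By comparison, the nspd differences were larger without this array, at -2.21 for nspd-4 and -1.94 for nspd-1 in the mean of both mutants.

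**Figure D5:**
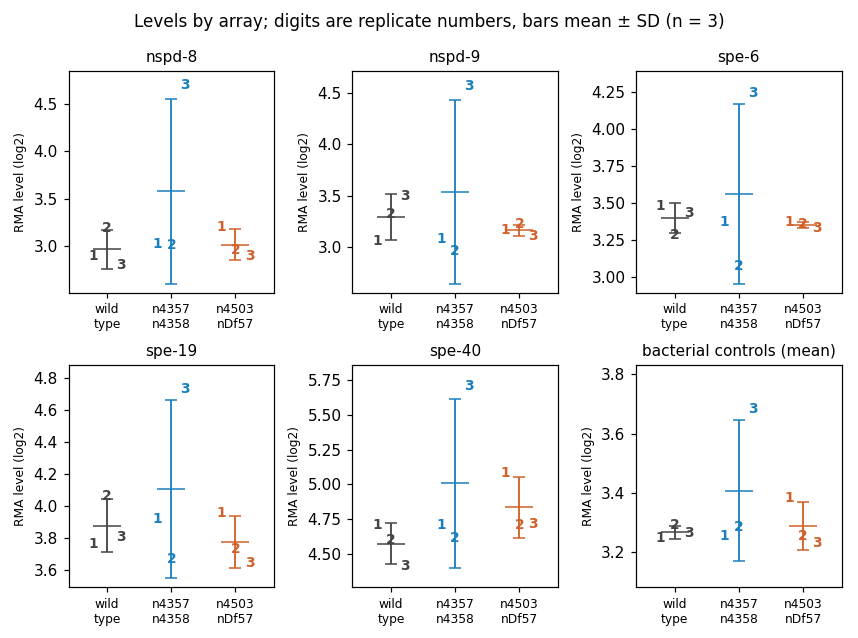
RMA level in log2 of nspd-8, nspd-9, spe-6, spe-19 and spe-40 and the mean of the 27 bacterial control probe sets on each array, with digits for the replicate number and bars for the mean and SD of 3 arrays. Replicate 3 of n4357 n4358 is the highest array in every panel, at 3.68 for the controls.

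Other genes that act before or beside these were read from fixed lists. Of 22 regulators of sperm fate, 0 passed the adjusted threshold, 13 were above 0 and 9 below, with a median of 0.03 in the mean of both mutants. The highest was fog-3, which germ cells need to become sperm, at 6.14, 5.45 and 4.81 log2 on the wild-type arrays, 6.85, 6.55 and 5.29 on those of n4357 n4358 and 6.63, 6.22 and 5.91 on those of n4503 nDf57. Its difference was 0.77 (SE 0.39; limma unadjusted p = 0.0838, adjusted p = 0.999), with overlapping groups. Of 23 major sperm protein genes, which encode the main motility protein of sperm, 0 passed and all 23 were below 0, with a median of -1.33. Their probe sets are all of the shared kind, so the 23 values are not independent of each other. Of all probe sets 43.5% were below 0. Of 18 other sperm genes 0 passed, 15 were below 0 and 3 above, with a median of -0.37, and the lowest was msd-4 at -1.43 (SE 0.62). Among them alg-3 and alg-4, Argonautes of sperm formation, differed by -0.0035 (SE 0.12) and -0.21 (SE 0.15), and smz-1, a sperm protein with a PDZ domain, by -0.41 (SE 0.34). Among 24 genes of oocytes and the eggshell, 15 lay above 0 and 0 passed, and the median was 0.04. Of 5 vitellogenins, which encode yolk protein, all 5 were below 0 and 0 passed, with a median of -0.48. The largest were vit-4 at -1.61 (SE 0.66) and vit-5 at -1.53 (SE 0.64), both on shared probe sets. The others ran from -0.48 (vit-6) to -0.32 (vit-1). The mean of the 5 relative to the 9 arrays was highest in wild-type replicate 2, at 1.42, and lowest in n4357 n4358 replicate 1, at -0.74. At an unadjusted limma p under 0.05, 0 of the major sperm protein genes, 3 of the other sperm genes and 2 of the vitellogenins were lower. Higher at that p were 1 of the sperm fate regulators and 1 of the oocyte and eggshell genes. The background was 1.73% lower and 1.88% higher. The part of these lists in the differences of the 42 genes was not tested.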

How the data were processed

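Whole-animal total RNA was biotin-labelled from its 3' end and read on the Affymetrix C. elegans Genome Array, per the labels' protocols. Each deposited value is 1 probe set's log2 level on 1 array, from RMA, per the submitters' processing notes, which also name limma, here without versions. RMA equalises array distributions, so a shift common to most genes is removed and low levels are compressed. The number of arrays limits precision.

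Of 22625 probe sets 77 controls were left out. Groups came from the sample titles. The remaining 22548 entered 1 limma fit (limma 3.58.1, statmod 1.5.0, R 4.3.3) of all 9 arrays with a mean per group, with Benjamini-Hochberg adjustment over all probe sets and a threshold of 0.05, tested on simulated data. Tables and figures used Python 3.11.15, pandas 2.3.3, numpy 2.4.6 and matplotlib 3.10.9. All 42 genes matched the reference table (assembly WBcel235) by gene ID. Probe sets ending in _s_at, _x_at or _a_at count as shared. Sequences and coordinates were not used here.

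Members, lists and tests were chosen with earlier results of these data known. Values by array are given, by rule, for the gene with the highest mean level in each role, the 3 genes with the smallest p in each of 4 comparisons, the 3 with the widest spread and 10 landmark genes. nspd-7, nspd-9, spe-6, spe-19, spe-40 and fog-3 were added after their values were seen. The moulting genes noah-1, nas-7 and sqt-3 were picked as examples. Alternatives were a replicate block, a level filter, a variance trend, array weights, cyclic loess, a fit of only the arrays compared, probe set averages, no shared probe sets, a threshold of 0.01, the moulting genes as covariate and leaving out each array. Added after seeing the data were a fit of 6 arrays, without the 3 with low moulting-gene levels, and the bacterial controls as covariate.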

Additional observations from a re-analysis of the deposited data

How the results depend on the processing

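Under 20 alternatives for the mean of both mutants and 21 for each other comparison, 0 of the 42 genes were called. The smallest adjusted p-values, all with array weights, were 0.213 for the mean, 0.234 for n4357 n4358, 0.0942 for n4503 nDf57 and 0.170 between the strains. These weights were highest for n4503 nDf57 replicate 2 (6.64) and n4357 n4358 replicate 2 (3.35), both among the lowest arrays for nspd-1, nspd-2 and nspd-4. They were lowest for n4357 n4358 replicate 3 (0.15) and n4503 nDf57 replicate 1 (0.30). The median difference of the mean ran from -0.10 to -0.0010, and from -0.10 to -0.03 with single arrays left out. For n4357 n4358 it ran from -0.10 to 0.06 and was above 0 under 3 alternatives, at 0.059 without n4357 n4358 replicate 2, 0.023 without wild-type replicate 2 and 0.050 without shared probe sets. For n4503 nDf57 it ran from -0.16 to -0.03, and between the strains from -0.20 to 0.04. With the replicate number as a block 0 genes were called and the median of the mean stayed at -0.079. The count of 6 genes lower at an unadjusted p under 0.05 was 4 with that block, 2 (spe-10 and spe-46) among the 28 genes left without shared probe sets, 10 with array weights, and between 6 and 8 with the level filter, the variance trend, cyclic loess, probe set averages, either covariate or the 6-array fit. These counts, too, have no share of all probe sets under the same setting beside them. Whether arrays of the same number belong together was not settled. Same-number correlations of deviations ran from -0.60 to 0.40 and those of other pairs from -0.54 to 0.65. In all, 0 of 9 arrays correlated best with their own number. Deviations were taken within groups of 3 arrays that differ in other ways, so these values cannot exclude a batch shared by number.

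Among the 21 members that the naming rule chose, 11 kept the sign of the mean difference under every alternative run and 10 did not. The 11 included nspd-1, nspd-2, nspd-4, spe-46 and spe-10. These met the rule by a small p in these same data, so their kept sign is no separate support. Over all 42 genes, 20 changed sign with some single array left out, nspd-9, spe-6, spe-19 and spe-39 among them. The cause was not tested. With single arrays left out the difference ran from -0.028 to 0.15 for fer-1, -0.24 to 0.0067 for snf-10, -0.038 to 0.12 for spe-41, -0.076 to 0.35 for spe-44, -0.056 to 0.070 for spe-47, -0.0019 to 0.23 for spe-9, -0.21 to 0.0082 for swm-1 and -0.065 to 0.089 for try-5. With array weights it was -0.023 for spe-4, -0.066 for spe-41, -0.057 for spe-47 and 0.10 for swm-1. With the moulting genes as covariate it was -0.011 for spe-41 and -0.013 for spe-47, and under cyclic loess -0.0079 for spe-47. On the 6 arrays it was -0.047 for fer-1, -0.041 for spe-41, -0.023 for spe-43, -0.12 for spe-47, 0.10 for swm-1 and 0.075 for try-5. With the bacterial controls as covariate it was -0.070 for spe-41, -0.025 for spe-43, -0.071 for spe-47, -0.049 for spe-9 and 0.014 for swm-1.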
